A study of Mus musculus with 6 samples.

Results

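The genes of the proteasome, the protein complex that degrades ubiquitin-tagged proteins, were followed in ovaries of tumor-bearing and control mice. Members were all genes whose symbol begins with Psma, Psmb, Psmc, Psmd, Psme or Psmg followed by a digit. The rule found 50 genes among the 19423 in the deposited table. Of these, 48 encode subunits, activators or assembly chaperones of the proteasome. The other 2 match by letters only: Psmc3ip, which encodes the meiotic recombination protein HOP2, and Psme3ip1, which encodes a protein that binds the activator PSME3. They are counted in all values over the 50 members, and their own levels are given separately below.

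The series holds RNA sequencing of whole ovaries of balb/c-nude mice, a strain without a thymus that accepts grafts of human cells. The control group has 3 libraries from mice without tumor cells. The tumor group has 3 libraries from mice given cells named MBA-MD-231 in the labels, by injection under the skin. The last number of that name counts upward over the treatments of the tumor samples, while their cell line label stays the same. All 6 ovaries were taken on day 80. Total RNA was extracted with Trizol and read as single-end 50-base reads on an MGIseq500 instrument. The sources used here give no estrous stage, litter or pooling, so p-values measure only the spread between these samples. In each library the total was between 18278614 and 19238900 estimated counts, and the limit that a count of 0 allows, 3 counts, was 0.156 to 0.164 CPM, the count scaled to a fixed library size. Such limits cover counting error only. The ovary label was checked with markers: 7 granulosa cell markers summed to 2468 to 4487 CPM and 8 oocyte markers to 331 to 656 CPM, and no marker gene of any list checked was at 0 in all libraries.

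The proteasome consists of a barrel-shaped 20S core, whose outer rings are built from alpha subunits and whose inner rings are built from beta subunits, and of a 19S particle that recognizes ubiquitin chains, removes them and threads the substrate into the core. Among the beta subunits of the core, Psmb5, Psmb6 and Psmb7 encode the proteases. Interferon signaling induces Psmb8, Psmb9 and Psmb10, which replace them in the immunoproteasome, and also the PA28 activator encoded by Psme1 and Psme2. When proteasome activity is short, the membrane-bound transcription factor NRF1, encoded by Nfe2l1, is cleaved by the protease DDI2 and switches on subunit genes together through antioxidant response elements in their promoters.

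Promoters were examined because subunit genes are known to be regulated together through such elements. RefSeq windows of GRCm38.p6, from 250 bases before to 50 bases after the start, were matched by symbol for 42 of the 50 members. The antioxidant response element core, searched on both strands as TGACNNNGC, was in 6 of 42 member windows (14.3%), those of Psmb5, Psmb6, Psmc6, Psmd9, Psmd12 and Psme4. It was in 12.4% of all 32851 promoter windows of that length, so the share in members lay near the background. The 4 stretches below, 5′ to 3′ on the strand of the gene, show this core in capitals in the catalytic subunits Psmb5 and Psmb6, in the 19S assembly chaperone Psmd9 and in the activator Psme4. That of Psme4 is a match on the reverse strand, and none overlaps a match to another motif searched.
Psmb5, chr14:54618026-54618050, minus strand: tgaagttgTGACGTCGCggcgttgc
Psmb6, chr11:70525340-70525364, plus strand: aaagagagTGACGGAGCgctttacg
Psmd9, chr5:123228151-123228175, plus strand: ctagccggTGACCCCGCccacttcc
Psme4, chr11:30771760-30771784, plus strand: ctgcggctGCAGCGTCAccagaaga

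Interferon-related motifs were searched in the same windows, since the immune subunits and PA28 are interferon targets. The interferon-stimulated response element, searched on both strands as GAAA, any 2 bases and again GAAA, was in 5 member windows (11.9%), those of Psmb3, Psmd4, Psmd9, Psme1 and Psmg4, and in 3.44% of all windows. The gamma-activated site, TTCNNNGAA, which reads alike on both strands, was in 3 member windows (7.14%), those of Psmb8, Psmd2 and Psmg1, and in 8.3% of all windows. The CCAAT box, searched as CCAAT on both strands, was in 16 member windows (38.1%) and in 37.4% of all windows. The stretches below show, in capitals, the gamma-activated site of the immune subunit Psmb8 and the reverse-strand match to the interferon element in Psme1. A match describes the letters of these windows and shows no binding.
Psmb8, chr17:34198090-34198114, plus strand: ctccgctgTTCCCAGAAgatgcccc
Psme1, chr14:55578495-55578520, plus strand: agctgtgcTTTCGCTTTCccttcccg

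No proteasome gene passed the test between tumor and control ovaries, although 45 of the 50 fitted differences pointed to a lower level in tumor. All 50 members entered edgeR's quasi-likelihood test, which covered 15787 genes. With an adjusted p (Benjamini-Hochberg) under 0.05 as the threshold, 0 members were higher and 0 lower, while 7.71% of all tested genes passed, 3.8% as higher and 3.91% as lower. The median log2 fold change was -0.23 over the members and -0.02 over all tested genes. Below 0 were 90.0% of the members and 51.5% of all genes. At an unadjusted p under 0.05, 12 members were lower (24%) and 1, the activator Psme4, was higher, against 15.2% lower, 15.8% higher and 31.0% in either direction among all genes. The 3 tumor libraries lay below the 3 control libraries without overlap for 17 members, and above them for 2, Psmb11 and Psme4, while 31 members overlapped. Among all tested genes, 18.4% lay lower, 19.8% higher and 38.1% in either direction without overlap. In bulk tissue, fewer cells of a type and less RNA per cell cannot be told apart.

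A few 20S genes passed the threshold with DESeq2 but not with limma-trend. On log2 of FPKM plus 1, limma-trend called 0 members, beside 758 genes higher and 584 lower in all. With plus 0.1 it also called 0 members, beside 747 higher and 589 lower. DESeq2 on the same counts called 4 members lower and 0 higher, against a background of 9.59% lower, 9.9% higher and 19.5% in all of the genes it gave an adjusted p. These were the alpha subunit gene Psma4 and the beta subunit genes Psmb1, Psmb3 and Psmb5. The authors' deposited table listed these 4 genes with q under 0.05 and no member as higher, among 7.3% of its genes lower and 7.36% higher. That q is also from DESeq2 on the same libraries, so it is no separate check. Without control replicate 2, edgeR called 4 members lower, Psmb1, Psmb5, Psmb10 and Psme1, and Psme4 higher. Its background then was 14.2% of all genes, with 6.78% lower and 7.42% higher. DESeq2 and edgeR both placed 45 members below 0, while the calls depended on the tool and on the libraries used.

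**Figure D1:**
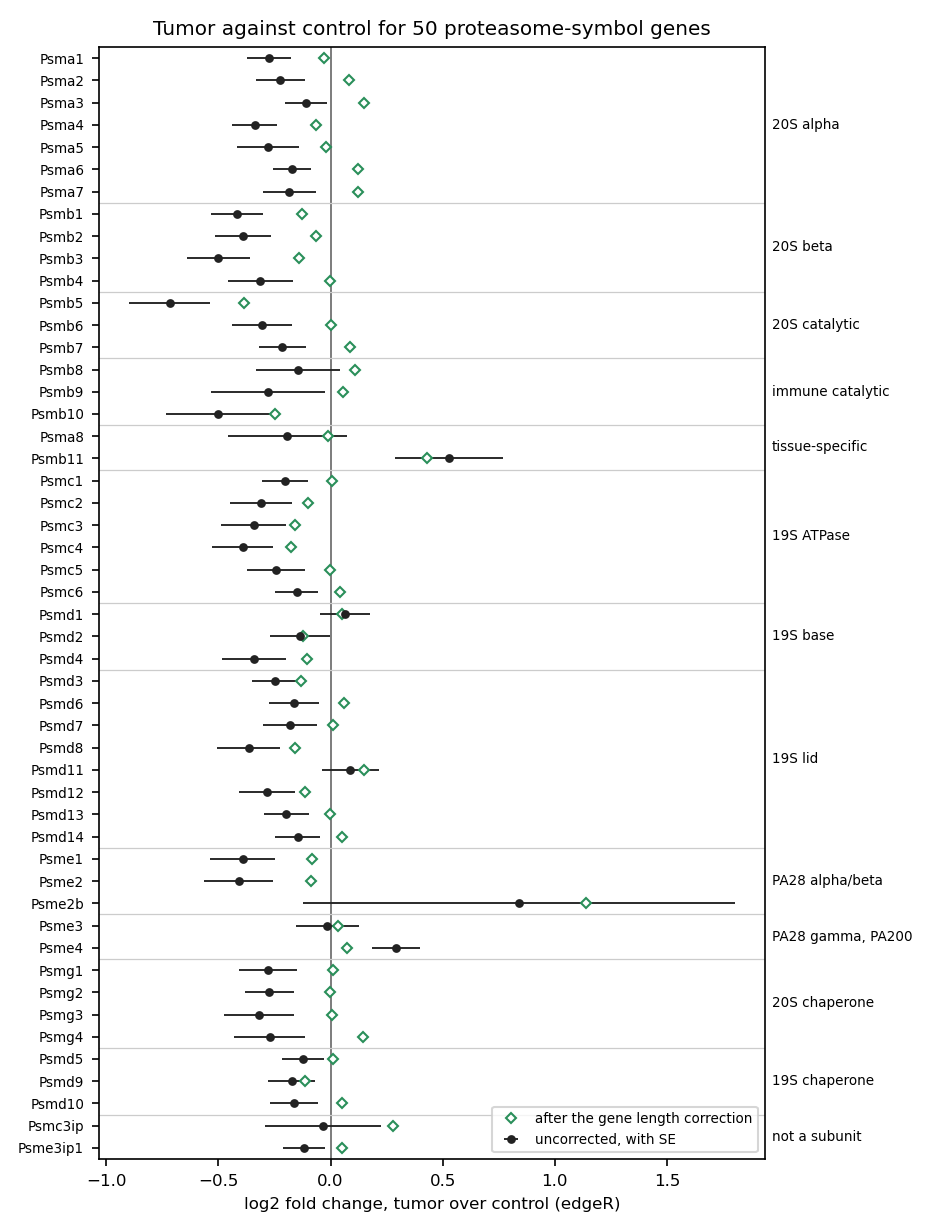
Log2 fold change of tumor over control for each of the 50 genes, grouped by role, on the horizontal axis. Filled points with bars are edgeR estimates with their standard error from 3 against 3 libraries, and open diamonds are estimates after the gene length correction. The filled points lie left of 0 for 45 genes, with Psmb5 lowest at -0.72, and the diamonds lie left of 0 for 24.

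The members are short genes, and in these libraries short genes as a whole were lower in tumor. The median effective length, the length over which reads are counted, was 1224 bases for members and 2841 bases for all tested genes. Among all genes under 1000 bases the median log2 fold change was -0.35, with 78.3% of them below 0. The 17 members in that class had a median of -0.31 and all 17 lay below 0. Between 1000 and 1500 bases, the median of all genes was -0.24 and that of 17 members -0.27. Between 1500 and 2500 bases, all genes had a median of -0.13 and 9 members one of -0.19. In these classes the medians of members and of all genes lay near each other, while a larger share of members lay below 0. At 1000 to 1500 bases 16 of 17 members did, against 74.2% of all genes. At 1500 to 2500 bases all 9 did, against 65.0%. The 5 members of 2500 to 4000 bases, Psmd1, Psmd2, Psmd9, Psmd11 and Psme3, had a median of -0.01, and all genes of that class had one of 0.01. From 4000 bases on, where the median of all genes was 0.21, the 2 members Psme4 and Psmb11 lay above 0, with a median of 0.41.

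Across genes, Spearman's rho between effective length and log2 fold change was 0.55 over the 50 members and 0.37 over all tested genes, which share the same 6 libraries and are not independent replicates. With a correction for gene length, fitted in each library and applied to all tested genes, 24 of the 50 members lay below 0 and their median was 0.00. The correction left 0 members past the adjusted threshold, against 2.41% of all genes, 1.09% as higher and 1.32% as lower. Psmb5 was the 1 member with an unadjusted p under 0.05 after it, at 0.0302 (edgeR). Alternatives chosen after seeing the data also corrected for GC content, in 49 members. With GC and length correction 34 of the 49 lay below 0, at a median of -0.04, against 0.00 over all tested genes. With GC correction alone 44 lay below 0, at a median of -0.24. The source of the length relation was not tested.

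**Figure D2:**
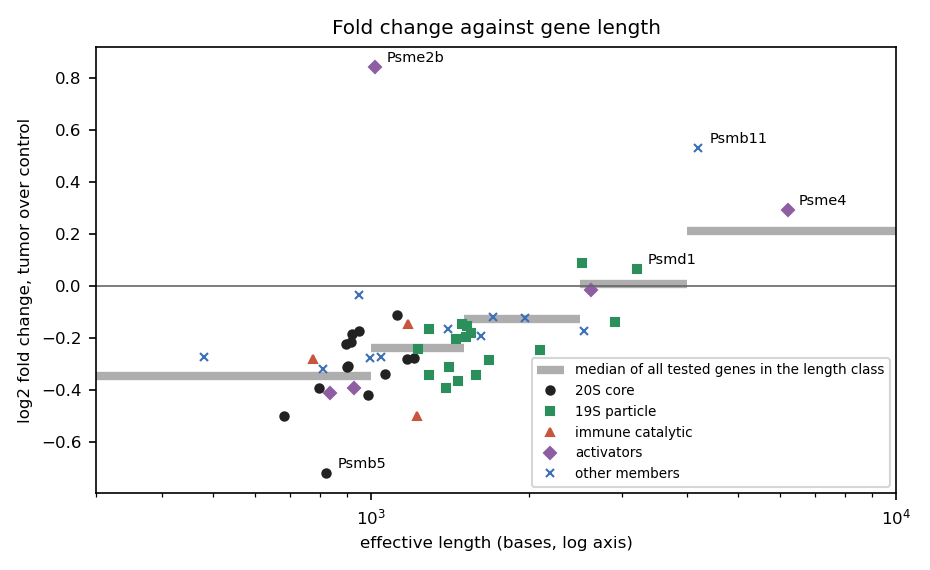
Log2 fold change of tumor over control against effective length in bases on a log axis; points are the 50 genes by role, and grey bars are medians of all tested genes in 5 length classes. The grey bars climb from -0.35 in the shortest class to 0.21 in the longest, and most points lie near them, with Psmb5 (-0.72), Psmb11 (0.53) and Psme2b (0.84) farther away.

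Levels were lowest in tumor replicate 1, followed by tumor replicate 2. Over the 31 constitutive subunits of the 20S core and the 19S particle, the median deviation of log2 CPM from the mean of each gene was 0.20, 0.04 and 0.19 in control replicates 1, 2 and 3. It was -0.26, -0.12 and 0.05 in the tumor replicates. Tumor replicate 1 held the lowest value for 29 of these 31 genes, and control replicates 1 and 3 held the highest for 16 and 11. The median of tumor replicate 3 lay inside the range of the control medians, just above that of control replicate 2. Single genes differed from this. In 7 of the 14 core genes and 6 of the 17 19S genes every tumor library, replicate 3 included, lay below every control. Among all tested genes 18.4% did so. Without tumor replicate 1, the median log2 fold change of all 50 members was -0.19, and without tumor replicate 3 it was -0.29.

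Markers of other cell types also differed between these libraries. Markers of luteal cells, the steroid-making cells of the corpus luteum, summed over 7 genes to 14982, 14398 and 15390.5 CPM in control and to 2522, 7787 and 8115 CPM in tumor, with 0 of the 7 called higher and 3 lower. The luteal sum, of which Cyp11a1 and Hsd3b1 made up most, was thus lowest in tumor replicate 1, as were most proteasome genes. Star, Lhcgr and Sfrp4 were also lowest there. Ptgfr and Akr1c18, both called lower, were instead highest there among the tumor libraries. Their tumor values were 5.56, 1.76 and 2.67 CPM and 2.96, 1.23 and 0.436 CPM. The 7 adipocyte markers summed to 468, 665 and 518 CPM in control and to 7222, 654 and 2939.9 CPM in tumor, with 0 called. The 8 oocyte markers reached 331, 351 and 441 CPM in control and 656, 513 and 580.3 CPM in tumor, with 5 called higher. Among all tested genes 3.8% were called higher and 3.91% lower. Of the called luteal and oocyte markers, Sfrp4 and Nlrp5 did not pass after the length correction (adjusted p = 0.0618 and 0.0720, edgeR), and the others did. The 6 oviduct markers summed to 2193, 2186 and 506 CPM in control and to 2054, 178 and 74.8 CPM in tumor, with 0 called, and they were high in control replicates 1 and 2 and tumor replicate 1. The part of these cell types in the proteasome values was not tested.

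**Figure D3:**
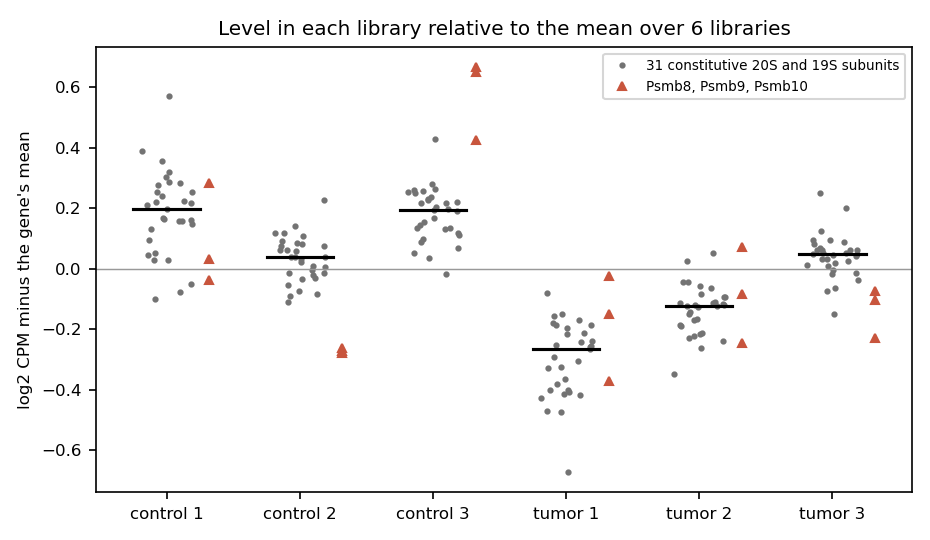
Log2 CPM of each gene minus its mean over 6 libraries, per library, for 31 constitutive 20S and 19S subunits (dots, with bars at the median) and the immune subunits Psmb8, Psmb9 and Psmb10 (triangles). The dots lie lowest in tumor replicate 1 (median -0.26), and the triangles lie highest in control replicate 3.

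Constitutive subunits were strongly expressed in these ovaries. Compared per length, as deposited TPM values, which are scaled to gene length and library size, the mean level over all libraries was 128 to 337 for the 14 core genes and 82.0 to 238 for the 17 genes of the 19S particle. The immune catalytic genes were lower, at 40.9 to 65.1 TPM, and the 7 assembly chaperones lay at 26.1 to 73.9 TPM. Psme1 and Psme2 reached 336 and 221 TPM, which is within the range of the core genes. Summed TPM of the core was 3652 ± 145 (SD, n = 3) in control and 3254 ± 296 (SD, n = 3) in tumor. The sums for the 19S particle were 2641 ± 91.1 (SD, n = 3) and 2499 ± 259 (SD, n = 3). Tumor replicate 3, at 3577 TPM, lay within the control range of 3484 to 3746 TPM for the core. The 19S sums in TPM differed by less than the SD of the tumor libraries. In CPM the core sums did not overlap, at 1560 to 1830 CPM in control and 1243 to 1546 CPM in tumor. Those of the 19S particle did, at 2079.5 to 2305 CPM in control and 1661 to 2143 CPM in tumor.

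**Figure D4:**
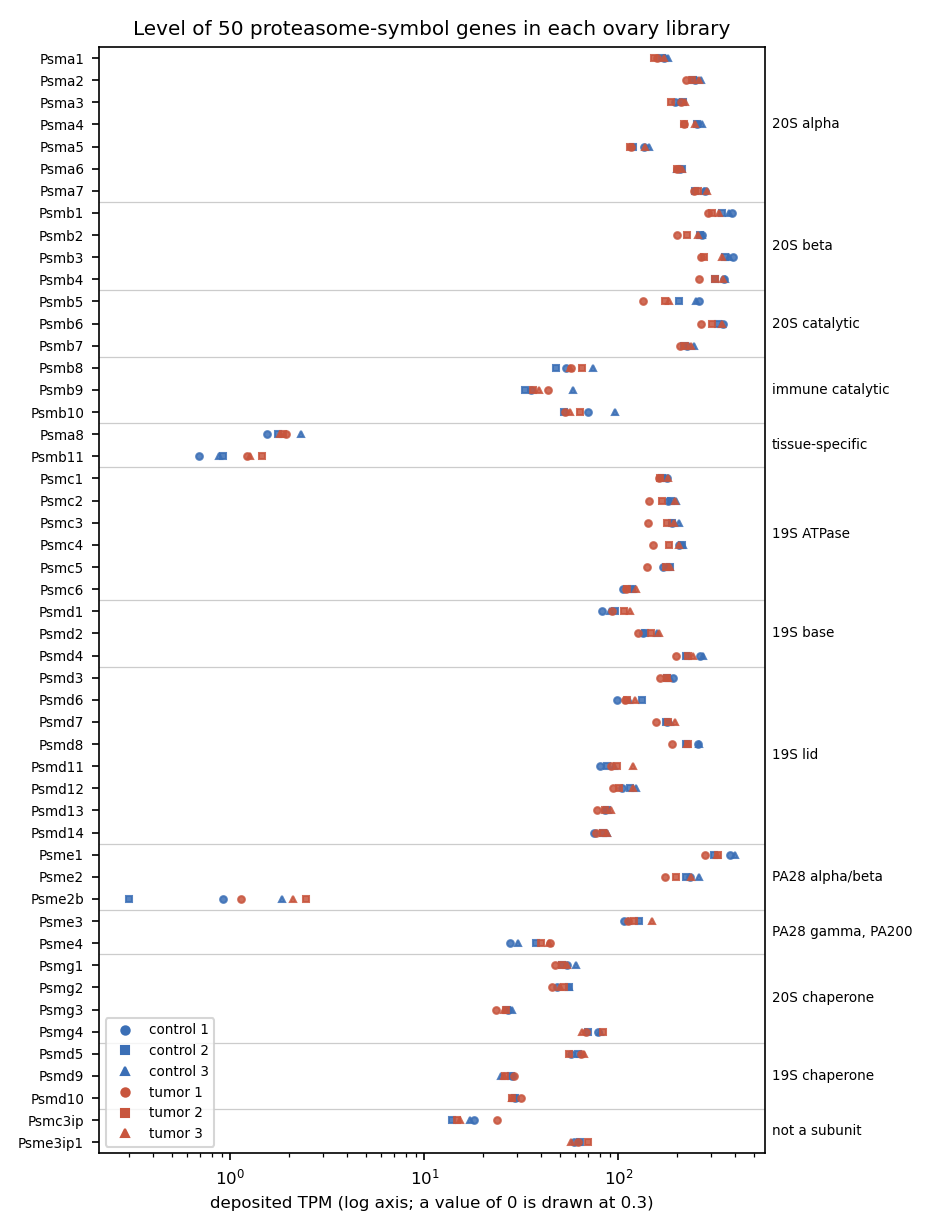
Deposited TPM of the 50 genes in each of 6 libraries on a log axis, with blue symbols for control and red for tumor; a value of 0 is drawn at 0.3. The means of the core genes over all libraries lie between 128 and 337 TPM, immune subunits lie lower, and Psma8, Psmb11 and Psme2b lie near 1 TPM.

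The alpha ring, which gates the entry of the core, was represented by 7 genes, Psma1 to Psma7, and 0 of them passed the test. All 7 log2 fold changes were below 0, with a median of -0.22 and a range from -0.34 to -0.11. Psma4 (chr9:54950781-54958034, plus strand) had 143, 130.0 and 144 CPM in control and 103, 105 and 122 CPM in tumor. Its groups did not overlap, with a log2 fold change of -0.34 ± 0.10 (SE) and an adjusted p of 0.0825 (edgeR, Benjamini-Hochberg). Psma1 (chr7:114264550-114276116, minus strand) had 111, 97.9 and 110.3 CPM in control and 84.1, 83.0 and 96.2 CPM in tumor. Here too every tumor library lay below every control library, and the adjusted p (edgeR) was 0.116. Psma2 overlapped, at 105 to 121 CPM in control and 87.9 to 109 CPM in tumor (adjusted p = 0.219, edgeR). Psma6 had no overlap either, while Psma3, Psma5 and Psma7 overlapped. After the length correction these 7 genes had a median of 0.08.

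The structural beta subunits, which carry no protease site, had a median of -0.40 over Psmb1, Psmb2, Psmb3 and Psmb4, and 0 of 4 passed. Psmb1 (chr17:15475721-15498276, minus strand) stood at 202, 162 and 185 CPM in control against 126, 135 and 150.2 CPM in tumor. This is a log2 fold change of -0.42 ± 0.12 (SE), adjusted p = 0.0735 by edgeR. Psmb3 (chr11:97703434-97713500, plus strand) had 141, 117 and 129 CPM in control and 80.1, 84.6 and 109 CPM in tumor. For it the fit gave -0.50 ± 0.14 (SE), adjusted p = 0.0755 by edgeR. Psmb2 had 114, 101 and 108 CPM in control and 70.8, 81.1 and 95.1 CPM in tumor (adjusted p = 0.0935, edgeR). In all 3 genes the groups were apart and tumor replicate 1 was the lowest library. With gene length taken into account, Psmb1 stood at -0.13, Psmb2 at -0.06 and Psmb3 at -0.14. The fourth gene, Psmb4, overlapped, with a log2 fold change of -0.31.

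Psmb5, the chymotrypsin-like protease of the core, had the lowest fitted log2 fold change of the 50 members. It lies on chr14:54614120-54617995, minus strand. Its level was 114, 81.6 and 104 CPM in control and 48.4, 64.3 and 69.6 CPM in tumor, so all 3 tumor libraries lay below the lowest control. The log2 fold change was -0.72 ± 0.18 (SE), with an adjusted p of 0.0594 by edgeR's quasi-likelihood test. The authors' deposited DESeq2 results gave a q of 0.00636 for it. After the length correction Psmb5 stood at -0.39 ± 0.14 (SE), adjusted p = 0.149 by edgeR, still the lowest of the core genes. Leaving out 1 library at a time moved the uncorrected value between -0.83 and -0.58.

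The other proteases of the core had groups that overlapped. Psmb6, the caspase-like protease (chr11:70525324-70527858, plus strand), had 167, 142 and 154 CPM in control and 106, 125 and 143 CPM in tumor. The groups met at control replicate 2 and tumor replicate 3, and the log2 fold change was -0.31 ± 0.13 (SE), adjusted p = 0.174 by edgeR. Psmb7, the trypsin-like protease (chr2:38588046-38643952, plus strand), had 110.0, 96.7 and 113 CPM in control and 83.5, 91.5 and 101 CPM in tumor. It overlapped as well, at -0.22 ± 0.11 (SE), adjusted p = 0.221 by edgeR. With the length correction the estimates were 0.00 for Psmb6 and 0.09 for Psmb7. Over the 14 core genes together, the median was -0.29 before the correction and -0.01 after it. Tumor lay lower without overlap in 7 of the 14, against 18.4% of all tested genes.

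Immune catalytic subunits did not pass the test, and each of the 3 was highest in control replicate 3. Psmb8 (chr17:34198195-34201454, plus strand), which takes the place of Psmb5, had 33.6, 27.1 and 44.0 CPM in control and 29.6, 34.5 and 30.5 CPM in tumor. All tumor values fell inside the control range, at a log2 fold change of -0.15 ± 0.19 (SE) and an adjusted p of 0.641 by edgeR. Psmb9 (chr17:34182030-34187330, minus strand), the counterpart of Psmb6, had 14.5, 12.3 and 23.3 CPM in control and 14.6, 12.5 and 14.1 CPM in tumor. Only control replicate 3 stood above the others, and the adjusted p was 0.496 by edgeR. Psmb10 (chr8:105935728-105938392, minus strand), the counterpart of Psmb7, had 45.2, 31.0 and 58.9 CPM in control and 28.7, 35.1 and 31.7 CPM in tumor. Its log2 fold change was -0.50 ± 0.23 (SE), adjusted p = 0.201 by edgeR, and its deposited span overlaps Slc12a4, whose reads may not be separable. The median of the 3 genes was -0.28, and without control replicate 3 it was 0.07.

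Control replicate 3 was also the highest library for an activator of these genes. Irf1, a transcription factor that activates the immune subunit genes, had 53.6, 47.8 and 73.8 CPM in control and 60.2, 64.1 and 57.9 CPM in tumor. Its groups overlapped, with an adjusted p of 0.853 by edgeR. Leukocyte markers, summed over 11 genes, were 623, 531 and 767 CPM in control and 766, 474 and 469 CPM in tumor, with 0 of the 10 tested called. This sum, of which Lyz2 and Cd74 made up most, was as high in tumor replicate 1 as in control replicate 3, but the single genes differed. Cd74 was at 301 CPM in tumor replicate 1 and 215 CPM in control replicate 3, and Lyz2 at 209 and 273 CPM. Ptprc, Adgre1, Csf1r, Cd3e, Cd79a and Nkg7 were higher in tumor replicate 1, as was Cd74. Cd68, C1qa and C1qb were higher in control replicate 3, as was Lyz2. Cd3e, a T cell marker, was at 0.05 to 0.27 CPM, close to the limit set by 3 counts. The part of leukocytes in the immune subunit levels was not tested.

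Within each library, the ratio of an immune subunit to its constitutive counterpart was taken from deposited TPM. Psmb8 over Psmb5 was 0.205, 0.232 and 0.297 in control and 0.428, 0.375 and 0.307 in tumor, with means of 0.245 ± 0.0471 (SD, n = 3) and 0.370 ± 0.0605 (SD, n = 3). The tumor ratios lay above the control ratios in every library, by a small margin between tumor replicate 3 and control replicate 3. The mean log2 ratio was higher by 0.60 in tumor. In the edgeR fit, which uses counts, the log2 fold change of Psmb8 lay 0.57 above that of Psmb5. It lay 0.44 to 0.75 above it when 1 library at a time was left out, and 0.50 above it after the length correction. Of this pair, Psmb5 was apart between groups in CPM and Psmb8 overlapped. Psmb9 over Psmb6 was 0.102, 0.1005 and 0.172 in control and 0.162, 0.118 and 0.114 in tumor. Psmb10 over Psmb7 was 0.309, 0.241 and 0.391 in control and 0.256, 0.289 and 0.238 in tumor. These other ratios overlapped between groups. Of the TPM of all 6 catalytic genes, the immune genes made up 17.5% ± 3.46 (SD, n = 3) in control and 18.6% ± 1.83 (SD, n = 3) in tumor.

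**Figure D5:**
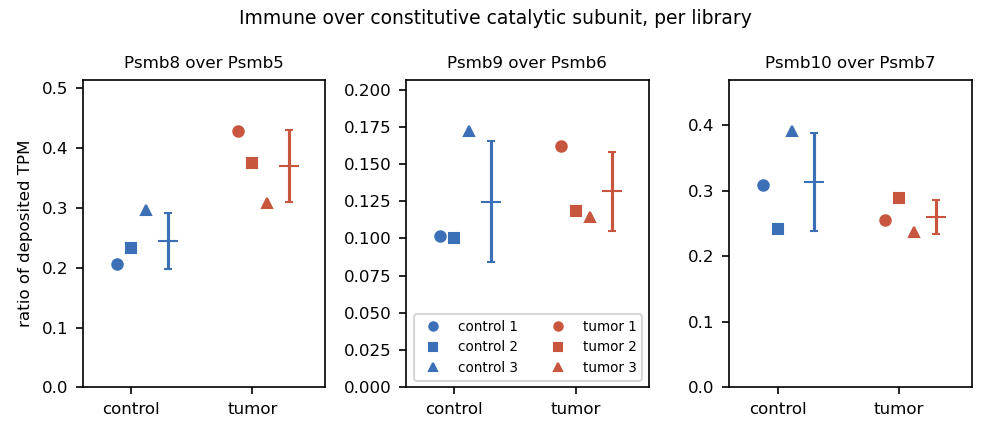
Ratio of deposited TPM of each immune catalytic subunit to the constitutive one it replaces, per library, with the mean and SD of 3 libraries beside the points. Psmb8 over Psmb5 is 0.307 or more in tumor and 0.297 or less in control, while the other ratios overlap.

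The 19S particle was represented by 17 genes and 0 passed the test, its log2 fold changes running from -0.39 to 0.09 around a median of -0.20. The 6 ATPases, which unfold the substrate, had a median of -0.28. Among them Psmc4 (chr7:28041702-28050092, minus strand) had 152, 142 and 151 CPM in control and 92.9, 115 and 132 CPM in tumor. Its groups did not overlap and its log2 fold change was -0.39 ± 0.14 (SE), adjusted p = 0.112 by edgeR. Psmc3 had 159.5, 144 and 165 CPM in control and 99.7, 128 and 143 CPM in tumor. Psmc2 had 134, 127 and 141 CPM in control and 89.8, 107 and 128 CPM in tumor. Psmc3 was apart by a narrow margin and Psmc2 overlapped, with adjusted p of 0.168 and 0.183 by edgeR. Psmc5 did not overlap either, and Psmc1 and Psmc6 did. In each of Psmc2, Psmc3 and Psmc4 tumor replicate 1 was the lowest library.

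The non-ATPase subunits of the base and the lid gave fitted values on both sides of 0. Psmd4, a receptor for ubiquitin chains (chr3:95032688-95042927, plus strand), had 179.8, 138 and 177 CPM in control and 113, 134 and 144 CPM in tumor. It overlapped through control replicate 2 (adjusted p = 0.162, edgeR). Psmd1 and Psmd2, the large scaffolds of the base, differed less. Psmd1 had 141, 149 and 147 CPM in control and 132, 154 and 171 CPM in tumor, and Psmd2 had 193 to 232 CPM in control and 163 to 218 CPM in tumor. Their log2 fold changes were 0.06 ± 0.11 (SE) and -0.14 ± 0.13 (SE), adjusted p = 0.744 and 0.534 by edgeR.

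In the lid, which carries the deubiquitinase Psmd14, 8 genes had a median of -0.19. Psmd8 (chr7:29174187-29180673, minus strand) had 201, 157 and 193 CPM in control and 122, 152 and 154 CPM in tumor. Psmd3 had 214, 180.4 and 194 CPM in control and 153, 169 and 175 CPM in tumor. Psmd12 had 93.1, 92.9 and 104 CPM in control and 69.4, 76.4 and 92.3 CPM in tumor. All 3 were without overlap, by a margin under 1 CPM in Psmd12, and their adjusted p were 0.136, 0.161 and 0.179 by edgeR. Psmd14 itself overlapped at -0.15, as did Psmd6, Psmd7 and Psmd13, and Psmd11 stood at 0.09. Across the 19S particle 6 of 17 genes had no overlap, all with tumor lower, against 18.4% of all tested genes, and the median after the length correction was 0.00. When 1 library at a time was left out, the median ranged from -0.28 to -0.12 for the 19S particle, from -0.40 to -0.21 for the core and from -0.41 to 0.07 for the immune genes. These ranges overlap, and the differences between the classes were not tested.

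The activators, which open the core without the 19S particle, gave fitted values in both directions, and 0 passed the test. Psme1, the PA28 alpha subunit (chr14:55578494-55581527, plus strand), had 186, 139.8 and 186 CPM in control and 114, 136 and 139 CPM in tumor. The groups were apart by under 1 CPM, at -0.39 ± 0.15 (SE), adjusted p = 0.129 by edgeR. Psme2, the PA28 beta subunit (chr14:55587440-55591101, minus strand), had 105, 89.6 and 111 CPM in control and 64.0, 74.9 and 91.2 CPM in tumor. It overlapped, at -0.41 ± 0.15 (SE), adjusted p = 0.129 by edgeR. These genes are neighbors on chromosome 14, and after the length correction they stood at -0.08 and -0.09. Summed TPM of Psme1 and Psme2 was 602 ± 62.8 (SD, n = 3) in control and 512 ± 54.5 (SD, n = 3) in tumor. Psme2b, a copy of Psme2 whose reads may be split with it, had 0.486, 0 and 0.969 CPM in control and 0.520, 1.12 and 0.981 CPM in tumor and is uncertain.

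The nuclear activators had fitted values near or above 0. Psme3, which encodes PA28 gamma (chr11:101316213-101323537, plus strand), had 149, 161 and 148 CPM in control and 129, 143 and 182 CPM in tumor. Its log2 fold change was -0.01 ± 0.14 (SE), adjusted p = 0.960 by edgeR, with the highest and the lowest library both in tumor. Psme4, which encodes PA200, an activator known for its role in histone degradation in germ cells (chr11:30771775-30881150, plus strand), had 90.4, 112 and 93.9 CPM in control and 123, 113 and 126 CPM in tumor. The groups were apart, by a narrow margin between the replicates numbered 2. Its log2 fold change was 0.29 ± 0.11 (SE), adjusted p = 0.128 by edgeR, and 0.07 after the length correction. Psme4 is a long gene, of 6216 bases in effective length, and its deposited span overlaps Erlec1.

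Transcript shares were examined for members with several transcripts. Among the 11 members with 2 or more transcripts of at least 10% mean share, that of the leading transcript did not overlap between groups in 2, Psme4 and Psmg3, against 19.1% of all genes so examined, so the count lay near the background. The leading transcript of Psme4, a predicted one, took 61.3%, 60.4% and 73.1% of the estimated counts of the gene in control and 37.9%, 44.5% and 45.1% in tumor. A curated transcript took 37.6%, 38.4% and 26.4% in control and 60.4%, 54.3% and 53.7% in tumor. The groups did not overlap for either. For Psmg3, a chaperone of the core, the share of the leading transcript was 91.7%, 91.8% and 100.0% in control and 85.9%, 74.1% and 67.8% in tumor. These shares are estimates from single-end reads of 50 bases, and no test was run on them.

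Assembly chaperones, which build the core and the base and are absent from the finished particle, had 0 of 7 genes past the test and a median of -0.27. Psmg2 (chr18:67641587-67654181, plus strand), a chaperone of the alpha ring, had 26.9, 28.2 and 29.4 CPM in control and 20.9, 24.8 and 24.2 CPM in tumor. Its groups did not overlap, at -0.27 ± 0.11 (SE), adjusted p = 0.153 by edgeR. Its partner Psmg1 had 28.6, 24.5 and 30.2 CPM in control and 20.6, 23.1 and 25.0 CPM in tumor and overlapped. Psmg3 had 11.7, 10.4 and 11.7 CPM in control and 8.31, 9.43 and 9.38 CPM in tumor, apart but with an adjusted p of 0.215 by edgeR. The chaperones of the 19S base lay nearer to 0, with -0.12 for Psmd5, -0.16 for Psmd10 and -0.17 for Psmd9, and adjusted p of 0.304 to 0.416 by edgeR. Among these, Psmd10 was without overlap, at 19.9 to 21.8 CPM in control and 17.9 to 19.4 CPM in tumor, and its deposited span overlaps Atg4a. The chaperone median after the length correction was 0.01.

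Core subunits known from other tissues were detected at low levels. Psmb11, the catalytic subunit of the cortical thymus (chr14:54625310-54629556, plus strand), had 1.51, 1.82 and 1.83 CPM in control and 2.23, 2.77 and 2.45 CPM in tumor. The groups were apart, at 0.53 ± 0.24 (SE), adjusted p = 0.190 by edgeR. It lies close to Psmb5 on chromosome 14, on the opposite strand, and per length it was at 0.823 TPM in control and 1.31 TPM in tumor on average. Psma8, the alpha subunit of the testis, had 1.35, 1.39 and 1.88 CPM in control and 1.40, 1.28 and 1.36 CPM in tumor (adjusted p = 0.667, edgeR). Of the genes that match the symbol rule only, Psmc3ip had 6.26 to 9.13 CPM in control and 6.29 to 9.92 CPM in tumor, and Psme3ip1 had 52.7 to 53.1 CPM in control and 45.7 to 53.7 CPM in tumor. Both overlapped, at log2 fold changes of -0.03 and -0.12.

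Among partners of the proteasome that the symbol rule leaves out, 11 were tested, 1 was higher and 0 lower, against 3.8% higher and 3.91% lower among all tested genes. Ecpas, a scaffold that binds the 26S proteasome (chr4:58797234-58917748, plus strand), rose from 98.5, 105 and 106 CPM in control to 143, 133 and 153 CPM in tumor. Its log2 fold change was 0.47 ± 0.09 (SE), adjusted p = 0.0385 by edgeR. Ecpas is a long gene of 8393 bases, and after the length correction it stood at 0.17, adjusted p = 0.234 by edgeR. Pomp, the maturation factor of the core (chr5:147860628-147875784, plus strand), had 102, 87.8 and 102 CPM in control and 61.8, 66.6 and 79.0 CPM in tumor, with tumor replicate 1 lowest, as for Psmb2 and Psmb3. It did not pass, at -0.49 ± 0.12 (SE) and an adjusted p of 0.0574 by edgeR, and stood at -0.14 after the length correction. The authors' deposited DESeq2 results gave it a q of 0.0134. The inhibitor Psmf1 was at -0.21 and the ubiquitin receptor Adrm1 at -0.09, with adjusted p of 0.189 and 0.699 by edgeR.

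In a list of 9 genes, those of NRF1 and NRF2 and of factors that process, bind or restrain them, 1 was higher and 0 lower, against the same background of 3.8% and 3.91%. Ddi2, the protease that releases NRF1 (chr4:141679797-141723419, minus strand), rose from 23.4, 26.7 and 23.9 CPM in control to 41.0, 40.3 and 44.3 CPM in tumor. The lowest tumor library was well above the highest control library, and the log2 fold change was 0.76 ± 0.10 (SE), adjusted p = 0.0301 by edgeR. It passed also after the length correction, at 0.72 ± 0.09 (SE), adjusted p = 0.0339 by edgeR. The deposited span of Ddi2 overlaps that of Rsc1a1 by 14028 bases, and reads of this pair may not be separable. Nfe2l1 itself had 307, 379 and 352 CPM in control and 315, 396 and 446 CPM in tumor and overlapped, adjusted p = 0.537 by edgeR. Nfe2l2, which encodes the related factor NRF2, had 168, 184 and 168 CPM in control and 171, 152 and 175 CPM in tumor, adjusted p = 0.693 by edgeR.

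Of 15 genes for ubiquitin, its activating enzymes and its shuttle factors, 1 was higher and 1 lower, where 3.8% and 3.91% of all tested genes were. Ubb, a polyubiquitin gene (chr11:62549878-62553213, plus strand), fell from 2144, 1969 and 1962 CPM in control to 1249, 1374 and 1466 CPM in tumor. The fit gave a log2 fold change of -0.57 ± 0.11 (SE), adjusted p = 0.0396 by edgeR, and -0.33 with an adjusted p of 0.0978 after the length correction. Uba6, a ubiquitin-activating enzyme (chr5:86107104-86172743, plus strand), rose from 8.43, 12.4 and 9.96 CPM to 20.6, 16.6 and 21.6 CPM. The fit gave 0.93 ± 0.19 (SE), adjusted p = 0.0436 by edgeR, and 0.78 with an adjusted p of 0.0728 after the length correction. The deposited span of Uba6 overlaps that of Stap1 on the same strand by 2478 bases, and their reads may not be separable. In both Ubb and Uba6 the groups lay apart.

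Antigen processing, which uses peptides made by the proteasome, had 3 of 12 genes lower and 0 higher, beside 3.91% lower and 3.8% higher among all tested genes. Tap2, a subunit of the peptide transporter (chr17:34204479-34216321, plus strand), fell from 89.6, 78.8 and 96.9 CPM in control to 51.3, 59.7 and 61.9 CPM in tumor. The peptide-loading chaperone Calr, calreticulin, fell from 1549, 1478 and 1505 CPM to 761, 943 and 1072 CPM. Pdia3, a disulfide isomerase of the same loading complex, fell from 1027, 941 and 943 CPM to 608, 664 and 743 CPM. Its deposited span overlaps that of Catsper2 on the same strand by 697 bases. Calr and Pdia3 are also general folding factors of the endoplasmic reticulum. The log2 fold changes were -0.62 ± 0.12 (SE) for Tap2, -0.71 ± 0.14 (SE) for Calr and -0.53 ± 0.11 (SE) for Pdia3, with adjusted p of 0.0386, 0.0422 and 0.0451 by edgeR. After the length correction the adjusted p were 0.0557, 0.0720 and 0.0613. Tap1, the other subunit of the transporter and a neighbor of Psmb8 and Psmb9, overlapped, at 30.7 to 78.7 CPM in control and 35.0 to 35.9 CPM in tumor. Each of the genes called in these lists lost its call when control replicate 1, control replicate 3, tumor replicate 2 or tumor replicate 3 was left out.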

How the data were processed

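Gene expression was measured in 3 control and 3 tumor ovaries. The submitters' processing notes name GRCm38.p6 as the build and list the tools RSEM 1.2.12, HISAT2 2.0.4 and Bowtie2 2.2.5 without their roles. The authors deposited estimated counts per gene and per transcript, of which 39.2% of the gene values above 0 were not whole. They were rounded here. FPKM and TPM values, both scaled to library size and gene length, were deposited beside them, per the file headers. The authors' own DESeq2 results, with p-values, q-values and log2 fold changes, were deposited as a table. Another 30 value columns went unused.

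Genes were filtered with filterByExpr, libraries scaled by TMM factors (0.962 to 1.054), and groups compared with the robust quasi-likelihood F test of edgeR 4.0.16 in R 4.3.3, with group as the only term and Benjamini-Hochberg adjustment over 15787 genes. A log2 fold change above 0 is higher in tumor, and CPM include the TMM factors. No 2 libraries agreed within sampling noise (chi-square per degree of freedom of at least 13.1). For the length correction, the deviation of log2 CPM from the mean of each gene was fitted against log2 effective length by a loess curve (span 0.5). The curve was fitted per library on genes with a mean log2 CPM above 1 and gave an offset for all tested genes. DESeq2 1.42.0, limma-trend 3.58.1 on log2 of FPKM plus 1 or 0.1, other filters, a replicate block, GC correction and each library left out in turn were tried as alternatives. The tests were tried on simulated data. Named in full were the catalytic, immune and activator genes, up to 3 genes with the smallest p in each other class, and in related lists the genes past the threshold with a fixed panel, of which a gene is not reported here. Tap1, the members named only for whether they overlapped, and Psmd11 stand outside this rule and were chosen after their values were seen. Members and lists were chosen with earlier results of these data known, and 9 members overlap another gene in the deposited positions. Protein sequences were not used here.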

Additional observations from a re-analysis of the deposited data

How the results depend on the processing

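The members' count of 0 higher and 0 lower became 4 lower with DESeq2, and ranged from 0 to 1 higher and 0 to 4 lower when 1 library at a time was left out. Counts over all genes, 600 higher and 617 lower, were 1530 and 1482 with DESeq2, 172 and 209 with the length correction, 0 and 0 with the replicate block, with or without the length correction, 364 and 431 with GC correction and 149 and 181 with GC and length correction. With 1 library left out they ranged from 0 to 1188 higher and 0 to 1534 lower, and at most 5 genes in each direction passed the threshold without control replicate 1, control replicate 3, tumor replicate 2 or tumor replicate 3. The GC alternatives were chosen after seeing the data. Whether replicate numbers pair the samples is not known. Same-numbered libraries correlated at 0.24, -0.21 and 0.53, and not every library correlated best with its own number. With so few libraries these correlations cannot decide it. Depth limits the values of Psma8, Psmb11 and Psme2b, near 1 CPM.

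Class medians of the log2 fold change under the length correction, the replicate block with it, and GC with length correction were -0.012, -0.017 and -0.078 for the core, -0.0036, -0.012 and -0.058 for the 19S particle, 0.057, 0.11 and 0.10 for the immune genes, -0.087, -0.091 and -0.062 for Psme1 and Psme2 and 0.0094, 0.0082 and -0.067 for the chaperones. The chaperones stood at -0.18 and -0.19 on FPKM plus 1 and plus 0.1. With 1 library left out, the medians ranged from -0.40 to -0.21 for the core, -0.28 to -0.12 for the 19S particle, -0.41 to 0.071 for the immune genes, -0.50 to -0.30 for Psme1 and Psme2 and -0.28 to -0.19 for the chaperones.

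Among the genes chosen by the naming rule, the log2 fold changes that turned direction under the length correction were 0.000048 for Psmb6, 0.088 for Psmb7, 0.11 for Psmb8, 0.057 for Psmb9, 0.034 for Psme3, 0.28 for Psmc3ip, 0.050 for Psme3ip1, 0.083 for Psma2, 0.0094 for Psmg1, 0.0084 for Psmg3, 0.053 for Psmd10, 0.0098 for Psmd5, 0.13 for Adrm1 and 0.0072 for Nfe2l2. Under the replicate block with the length correction they were 0.087 for Psmb7, 0.13 for Psmb8, 0.11 for Psmb9, 0.022 for Psme3, 0.0020 for Psma8, 0.25 for Psmc3ip, 0.047 for Psme3ip1, 0.081 for Psma2, 0.0095 for Psmg1, 0.0082 for Psmg3, 0.052 for Psmd10, 0.0063 for Psmd5, 0.12 for Adrm1 and 0.0066 for Nfe2l2. Under GC correction they were 0.022 for Psmb8, -0.012 for Psmd1 and 0.17 for Adrm1, and under GC with length correction 0.054 for Psmb6, 0.029 for Psmb7, 0.18 for Psmb8, 0.10 for Psmb9, 0.021 for Psme3, -0.013 for Psme4, 0.24 for Psmc3ip, -0.013 for Psmd1, 0.0013 for Psmg1, 0.066 for Psmg3 and 0.26 for Adrm1. On FPKM plus 1 they were 0.037 for Psme3, 0.0023 for Psmc3ip and 0.0010 for Nfe2l2, and on FPKM plus 0.1 0.037 for Psme3, 0.00064 for Psmc3ip and 0.0010 for Nfe2l2. With 1 library left out, the values of these genes that turned ranged from -0.26 to 0.088 for Psmb8, -0.41 to 0.071 for Psmb9, -0.17 to 0.090 for Psme3, -0.26 to 0.0062 for Psma8, -0.26 to 0.12 for Psmc3ip, -0.027 to 0.16 for Psmd1, -0.18 to 0.034 for Adrm1, -0.026 to 0.29 for Irf1 and -0.10 to 0.029 for Nfe2l2. The cause of these turns was not tested.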
